A study of Mus musculus with 9 samples.

Results

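The OAS enzymes and cytosolic RNA sensors were followed as 10 named genes, namely Oas1a, Oas1g, Oas2, Oas3, Oasl1, Oasl2, Ddx58, Ifih1, Dhx58 and Eif2ak2. They were chosen by symbol, and each was found as 1 row among the 24411 genes of the deposited expression table. All 10 passed the filter on low values, which 11753 genes passed in all. Expression was measured by RNA-seq in macrophage lines of C57BL/6 mice that had been expanded in long-term culture without genetic modification. There were 3 yolk sac (YS) lines, started from the yolk sac at E9.5, 3 fetal liver (FL) lines, started from the liver at E14.5, and 3 bone marrow (BM) lines, started from adult bone marrow. The starting cells of a line had been pooled from several mice, all lines were kept in medium with 10% serum and 100 ng/mL human M-CSF, and no interferon, virus or other stimulus is named for the RNA-seq cultures. The study counted the culture of each dish or well as a line, and each line was sequenced once. Nothing states whether the lines of a group came from separate pools of mice, so they may be sister cultures. The p-values measure the spread between lines.

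These genes belong to the part of innate immunity that detects double-stranded RNA in the cytosol. OAS enzymes bind such RNA and make short oligoadenylates, which serve as a messenger of the antiviral response. RIG-I (Ddx58) and MDA5 (Ifih1) are helicases that bind viral RNA and signal through the adaptor MAVS to induce type I interferon, LGP2 (Dhx58) modulates them, and PKR (Eif2ak2) is a kinase that stops translation by phosphorylating eIF2α. Nearly all of these genes are themselves induced by interferon, through the factor ISGF3, which binds an element in promoters, the interferon-stimulated response element.

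The core of that element, GAAA followed by any 2 bases and again GAAA, was looked for in the members' promoters because the members are known interferon targets and moved together across the lines, as described below. RefSeq promoters of GRCm38.p6, which run from 250 bases before to 50 bases after a start site, were found for 8 of the 10 genes, all but Oas2 and Dhx58. These letters occurred on either strand in 6 of these 8, against 3.44% of all 32851 promoter windows, and not in the windows of Oasl1 and Oasl2. The sites are shown in 30 bases of the gene's strand, 5′ to 3′, with the matching letters in capitals.
Oas1a: ttctcggGAAATGGAAACTGAAAatctact
Oas1g: ttctcggGAAATGGAAACTGAAAatctact
Oas3: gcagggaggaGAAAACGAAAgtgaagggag
Ddx58: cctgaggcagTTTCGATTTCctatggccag
Ifih1: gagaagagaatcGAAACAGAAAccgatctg
Eif2ak2: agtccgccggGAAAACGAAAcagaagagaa
All 6 genes are read from the minus strand. The windows lie at chr5:120907523-120907552 for Oas1a, chr5:120887609-120887638 for Oas1g, chr5:120777715-120777744 for Oas3, chr4:40239804-40239833 for Ddx58, chr2:62646206-62646235 for Ifih1 and chr17:78882535-78882564 for Eif2ak2. Oas1a and Oas1g had the same 30 bases, in which 2 overlapping matches run together, and in Ddx58 the match was on the opposite strand. In the Oas genes the matches lay before the RefSeq start site, and in Ddx58, Ifih1 and Eif2ak2 they lay after it. Such a match describes the letters of the window and not a site shown to be bound in these lines.

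The table holds TPM, a unit corrected for transcript length and for the total of the library, so levels of different genes can be compared. TPM keeps no record of depth, so the values were read against the spread between lines. Between 10977 and 11457 genes reached 1 TPM in a library. All 10 macrophage markers examined, among them Csf1r, Adgre1, Itgam and Spi1, were at 1 TPM or more in each line. Their levels were not alike throughout. Fcgr1 was at 122.16 to 329.94 TPM in YS lines, 110.13 to 171.94 TPM in FL lines and 5.47, 42.10 and 1.68 TPM in BM lines 1 to 3. Lyz2 ran from 1163.15 TPM in YS line 1 to 21976.1 TPM in FL line 2. Markers of T and B cells, neutrophils and fibroblasts each summed to 1.42 TPM or less in every line. The hemoglobin genes Hba-a1 and Hbb-bt stood at 214.99 and 12.55 TPM in BM line 2, while Hba-a1 was at 0.30 TPM in BM lines 1 and 3 and Hbb-bt was listed at 0 there. The 4 endothelial markers summed to between 0.46 and 55.75 TPM in YS, 18.63 and 51.68 TPM in FL and 0.06 and 1.14 TPM in BM lines, with up to 54.35 TPM from Kdr, while Emcn was listed at 0 in each line. Of the 4 hepatocyte markers Afp alone reached 1 TPM, with 1.03 to 20.45 TPM over the 9 lines, and of the 4 plasmacytoid dendritic cell markers Tcf4 alone, with 37.34 to 51.29 TPM. The part of these markers in the results was not tested. In bulk RNA, fewer cells that express a gene and less RNA per cell cannot be told apart.

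The differences between groups were tested on log2(TPM + 1) with limma, in one model over all 9 libraries. The 3 groups thus shared one estimate of the spread for each gene. A gene was called when its false discovery rate was under 0.1 and its change over 2-fold, which are the thresholds of the study. SE is the standard error of a log2 difference. By group means, YS lines stood highest, BM lines lowest and FL lines between them. The mean TPM had this order in 10 of 10 genes and the mean log2(TPM + 1) in 9 of 10, all but Oasl1. The share of all genes with this order was not computed, and single YS and FL lines overlapped in 9 of the 10 genes. For YS over BM lines, 7 of the 10 genes were called higher in the YS lines and 0 lower. The 7 were Oas1a, Oas2, Oasl2, Ddx58, Ifih1, Dhx58 and Eif2ak2. Of all genes tested, 7.57% were called higher and 5.22% lower in this comparison, a split of 890 against 614 that became 724 against 763 with quantile normalization. All 10 differences were positive, as were 58.8% of those of all genes. The median difference of the 10 genes was 1.54 (log2) against 0.11 for all genes, and with quantile normalization, which moved the median of all genes by over 0.1, it was 1.42 against -0.01.

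**Figure D1:**
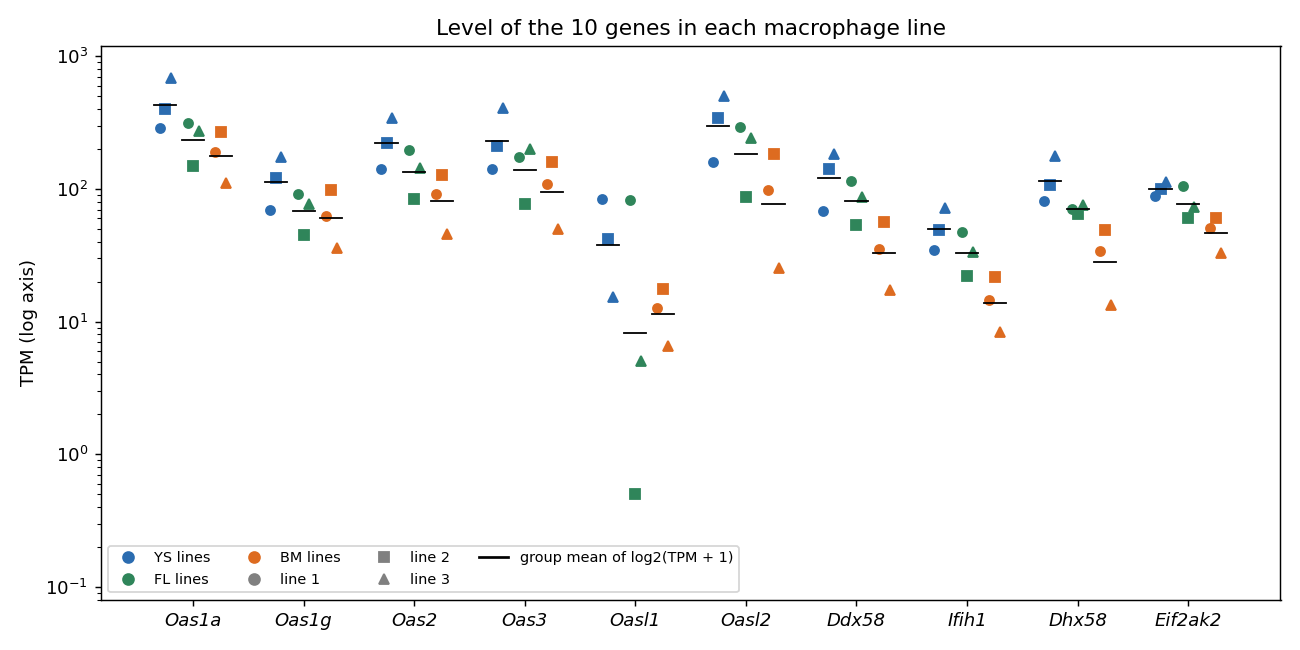
Level of the 10 genes in the 3 YS, 3 FL and 3 BM lines, in TPM on a log axis. Each point is 1 line (circle, square and triangle for lines 1, 2 and 3) and each bar the group mean of log2(TPM + 1), turned back to TPM. YS line 3 is the highest YS line in 9 genes, and Oasl1 is the gene whose FL lines spread from 0.50 to 83.15 TPM.

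Among the enzymes that make oligoadenylates, Oas1a had the highest level of the 10 genes, with a mean of 298 TPM over the 9 lines. It was measured at 287.77, 400.28 and 686.97 TPM in YS lines 1 to 3, 315.29, 150.14 and 271.78 TPM in the FL lines, and 191.81, 269.54 and 110.42 TPM in the BM lines. Each YS line was above every BM line, while FL lines overlapped both other groups. Its YS-to-BM log2 difference was 1.26 (SE 0.43, adjusted p by limma = 0.057). Oas1g, a close relative, was at 69.65, 121.21 and 173.85 TPM in the YS lines, 92.04, 44.96 and 76.94 TPM in the FL lines, and 62.77, 97.99 and 35.61 TPM in the BM lines. BM line 2 was above YS line 1, and the difference of 0.90 was not called (SE 0.44, adjusted p by limma = 0.16).

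The rows of these 2 genes may not be independent. Of the 75-nt windows in their GENCODE M21 transcripts, the read length of the study, 47.6% of those of Oas1a also occur in Oas1g and 44.6% of those of Oas1g in Oas1a. No other member shared such a window with another gene. The level of Oas1a was between 2.75 and 4.13 times that of Oas1g in the 9 lines. With the TPM of both genes summed, the YS-to-BM log2 difference was 1.18 (adjusted p by limma = 0.071) and stayed on the same side of the thresholds as that of Oas1a.

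Oas2 and Oas3 encode the larger enzymes of the family, which carry repeated OAS units. Oas2 was at 142.75, 222.75 and 344.15 TPM in the YS lines, 197.63, 83.76 and 144.45 TPM in the FL lines, and 92.31, 126.80 and 46.11 TPM in the BM lines. All YS lines exceeded all BM lines, with a log2 difference of 1.43 (SE 0.46, adjusted p by limma = 0.048). Oas3 was at 142.37, 212.39 and 407.27 TPM in the YS lines, 173.30, 76.84 and 201.02 TPM in the FL lines, and 108.77, 159.47 and 50.31 TPM in the BM lines. Here BM line 2 was above YS line 1, and the log2 difference of 1.26 did not pass (SE 0.54, adjusted p by limma = 0.11).

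Of the OAS-like genes, by mean log2(TPM + 1), Oasl2 kept to the group order of the enzymes and Oasl1 did not, while by mean TPM both did. Oasl2, an OAS-like protein with enzyme activity, was at 159.49, 342.61 and 499.88 TPM in the YS lines, 292.61, 86.76 and 242.95 TPM in the FL lines, and 97.48, 182.36 and 25.35 TPM in the BM lines. The BM lines differed by 7.19-fold among themselves, the widest BM range of the 10 genes, and BM line 2 was above YS line 1. The YS-to-BM log2 difference was 1.95 (SE 0.75, adjusted p by limma = 0.085), and was not called with median-of-ratios scaling (adjusted p = 0.11) or with only those groups in the model (adjusted p = 0.10). Oasl1, which is known to repress translation of Irf7 mRNA, was at 84.01, 42.02 and 15.36 TPM in the YS lines, 83.15, 0.50 and 5.05 TPM in the FL lines, and 12.63, 17.68 and 6.60 TPM in the BM lines. YS line 1, the lowest YS line for the 9 other genes, was the highest for Oasl1, and FL line 1 was 166-fold above FL line 2. Oasl1 was called in 0 comparisons in the model of all libraries, with log2 differences of 1.65 for YS over BM, -0.45 for FL over BM and 2.10 for YS over FL (SE 1.28 each; adjusted p by limma = 0.36, 0.84 and 0.33). Leaving out FL line 2 turned the FL and BM difference to 0.86, and leaving out FL line 1 raised the YS and FL difference to 3.70, which was then called (adjusted p by limma = 0.050). With only YS and BM lines in the model, their difference was called too (adjusted p by limma = 0.097).

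All of the RIG-I-like receptor genes were called higher in YS than in BM lines. Ddx58 was at 67.71, 141.66 and 182.42 TPM in the YS lines, 114.91, 53.29 and 86.78 TPM in the FL lines, and 35.24, 56.47 and 17.44 TPM in the BM lines. Each YS line was above each BM line, and the log2 difference was 1.85 (SE 0.49, adjusted p by limma = 0.026). Ifih1 was the least abundant of the receptor genes, at 34.68, 48.71 and 72.19 TPM in the YS lines, 47.19, 21.91 and 33.63 TPM in the FL lines, and 14.67, 21.77 and 8.33 TPM in the BM lines. Both YS and FL lines were above every BM line, FL line 2 by a small margin over BM line 2. The log2 difference was 1.76 for YS over BM lines (SE 0.40, adjusted p by limma = 0.014). The level of Ddx58 was between 1.95 and 2.91 times that of Ifih1 in each of the 9 lines.

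On the scale of log2(TPM + 1), Dhx58 had the highest YS-to-BM difference of the 10 genes, little above that of Oasl2, while by the ratio of mean TPM Oasl1 (3.83) was above Dhx58 (3.77). It was at 80.63, 106.51 and 177.17 TPM in the YS lines, 70.87, 64.80 and 76.24 TPM in the FL lines, and 33.85, 49.25 and 13.43 TPM in the BM lines. The 3 groups did not overlap at all. Dhx58 was the only one of the 10 genes whose YS lines were all above all FL lines, against 12.6% of all genes tested. Its YS-to-BM log2 difference was 1.98 (SE 0.44, adjusted p by limma = 0.013). Eif2ak2 varied least of the 10 genes among YS lines and among BM lines, at 88.48, 100.40 and 112.03 TPM in the YS lines, 105.25, 60.96 and 72.59 TPM in the FL lines, and 50.43, 60.92 and 33.06 TPM in the BM lines. YS lines were above all BM lines, and the lowest FL line, at 60.96 TPM, was level with the highest BM line, at 60.92 TPM. Its YS-to-BM log2 difference was 1.08, just over 2-fold (SE 0.26, adjusted p by limma = 0.017), and was under 2-fold with quantile normalization (0.95) and with median-of-ratios scaling (0.97).

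Between YS and BM lines the groups did not overlap, with YS higher, in 6 of the 10 genes, against 30.3% of all genes tested. For each of these 6 an exact two-sided permutation test gave p = 0.1, the smallest that 3 lines against 3 allow. The number of genes called depended on single lines. It was 9 without YS line 1 or without BM line 2, 4 without BM line 1, 3 without BM line 3 and 3 without YS line 3. Ddx58, Ifih1 and Dhx58 were called in all 9 fits that left out one line each. The calls of Oas1a and Oas2 were lost without YS line 3, BM line 1 or BM line 3, and that of Eif2ak2 without YS line 3 or BM line 3. The call of Oasl2 was lost without any one of YS lines 2 and 3, FL line 3 and BM lines 1 and 3.

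Against BM lines, 2 of the 10 genes were called higher in FL lines, namely Dhx58 and Ifih1, and 0 lower, against 6.01% and 4.3% of all genes tested (706 against 505, or 592 against 593 with quantile normalization). The log2 difference of Dhx58 was 1.28 (SE 0.44, adjusted p by limma = 0.073) and that of Ifih1 was 1.17 (SE 0.40, adjusted p by limma = 0.072). Ddx58 narrowly missed, at 1.28 (SE 0.49, adjusted p by limma = 0.105), and Eif2ak2 was at 0.72, less than 2-fold (SE 0.26, adjusted p by limma = 0.083). The differences of Oas1a, Oas1g, Oas2 and Oas3 were 0.39, 0.18, 0.71 and 0.53, with adjusted p by limma between 0.32 and 0.82, and their 95% confidence intervals all spanned 0. The FL lines were all above the BM lines in Ifih1, Dhx58 and Eif2ak2, or 3 of the 10 genes, against 31% of all genes. The difference was positive in 9 of the 10 genes, all but Oasl1, against 59% of all genes, and its median was 0.71 against 0.09 for all genes (0.38 without BM line 3, 0.47 without FL line 1). Both calls were lost without FL line 1, FL line 3, BM line 1 or BM line 3, so that 0 genes were called. That of Dhx58 was also lost with quantile normalization and median-of-ratios scaling (adjusted p = 0.103 in both) and without FL line 2, where Ddx58 was called in its place. With Ddx58 added, 3 were called without BM line 2, YS line 1 or YS line 3. This comparison and that of YS and BM lines share the same BM libraries.

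Between YS and FL lines, limma called 0 of the 10 genes, and 0 had an unadjusted p under 0.05 (25.7% of all genes did), against 1.95% of all genes called higher and 1.85% called lower. All 10 differences had a positive sign, as did 52.2% of all genes tested. They lay between 0.36 for Eif2ak2 and 2.10 for Oasl1, with a median of 0.72 against 0.02 for all genes. The median was 0.35 without FL line 2 and 0.37 without YS line 3. The 95% confidence intervals did not exclude a 2-fold difference in any gene but Eif2ak2, whose interval ran from -0.22 to 0.94. Without FL line 1, Oasl1 alone was called.

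**Figure D2:**
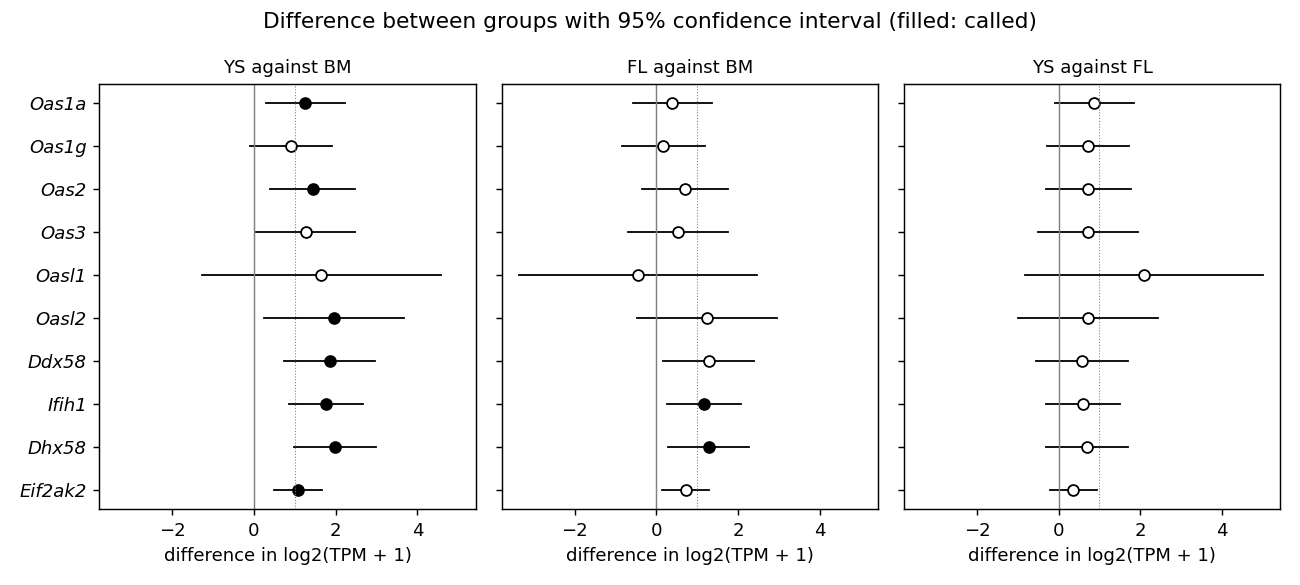
Difference in log2(TPM + 1) between groups for each of the 10 genes, with its 95% confidence interval from limma. Filled points are called genes (the dotted line marks 2-fold): 7 for YS over BM, 2 for FL over BM and 0 for YS over FL.

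The lines of one group differed widely in these genes, and in the same order for most of them. BM line 2 was the highest and BM line 3 the lowest BM line in 10 of 10 genes. FL line 2 was the lowest FL line in 10 of 10 genes, and FL line 1 the highest in 8, all but Oas3 and Dhx58. YS line 3 was the highest and YS line 1 the lowest YS line in 9 of 10 genes, Oasl1 being the exception at both ends. Summed over the 10 genes, TPM came to 1158, 1739 and 2671 in YS lines 1 to 3, to 1492, 643.9 and 1211 in FL lines and to 699.96, 1042 and 346.7 in BM lines. By this sum FL line 2 was below BM lines 1 and 2, and YS line 1 was only slightly above BM line 2.

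The spread inside a group was larger than for most genes. The standard deviation of log2(TPM + 1) among the 3 lines had a median over the 10 genes of 0.65 in YS, 0.56 in FL and 0.73 in BM lines, against 0.28, 0.18 and 0.11 for all genes tested. The group means accounted for a median of 53.1% of the sum of squares of the 10 genes, close to the 56.1% for all genes. The share was highest in Dhx58 (71.8%), Ifih1 (71.2%), Eif2ak2 (70.4%) and Ddx58 (63.8%), and lower in the OAS genes, from 53.8% in Oas2 to 25.7% in Oasl1.

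Across the 9 libraries, Pearson's r of log2(TPM + 1) between pairs of genes other than Oasl1 lay between 0.82 and 0.99, with a median of 0.95 over 36 pairs. After each group's mean was subtracted, the median was 0.96, so the genes moved together among the lines of a group as well. Oasl1 had a median r of 0.46 with the 9 others, and of 0.32 after the group means were subtracted. These values describe 9 libraries in which each gene shares the same scaling.

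**Figure D3:**
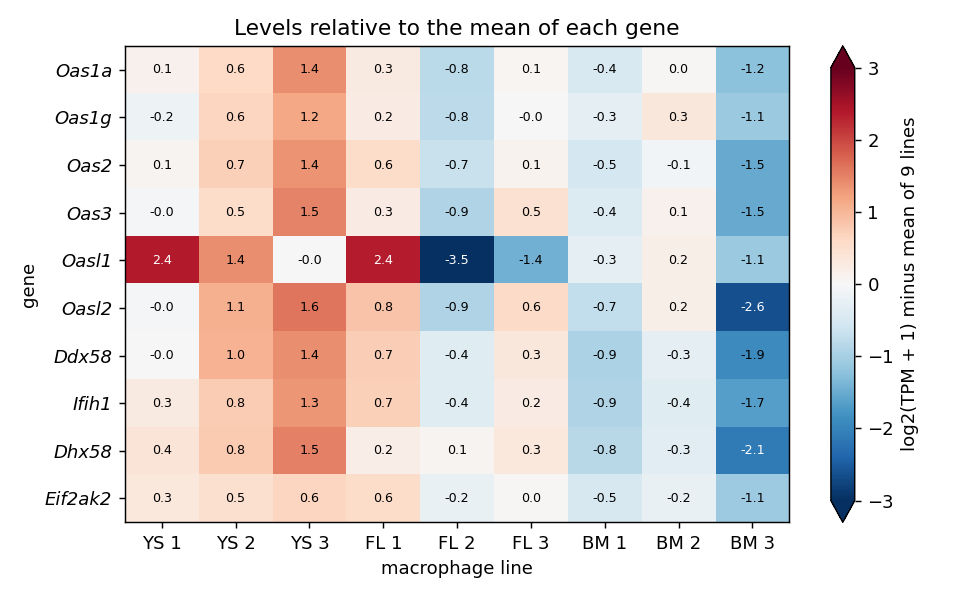
log2(TPM + 1) of each gene in each of the 9 lines, minus the mean of that gene over the 9 lines. YS line 3 is the highest and BM line 3 the lowest line in 9 of the genes, FL line 2 is the lowest FL line in all 10, and the row of Oasl1 has another pattern, highest in YS line 1 and FL line 1.

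Among the genes outside the list whose pattern was most like the mean log2(TPM + 1) of the 10 genes were Trex1 (Pearson's r = 0.991 over 9 libraries), Parp9 (0.984), Ogfr (0.983), Sp100 (0.975), Tap1 (0.975), Nlrc5 (0.974), Parp12 (0.973), Uba7 (0.973) and Oas1b (0.972). Of the 11743 other tested genes, 119 (1.01%) had an r over 0.9, and the median was 0.12.

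The other genes of these pathways were taken from 8 lists with 60 genes, of which 56 passed the filter. YS lines had 14 of them called higher than BM lines and 1 lower, and FL lines had 6 higher and 0 lower. With BM line 2 left out, 17 and 7 were called in all. For FL over BM lines, 3 were called without BM line 1 and 2 without BM line 3. For YS over FL lines limma called 0, with 13 at an unadjusted p under 0.05 (25.7% of all genes), and at most 3 when a line was left out, here FL line 1. The median difference of the 56 genes was 0.32 for YS over BM, 0.29 for FL over BM and 0.23 for YS over FL, the last 0.10 without YS line 3. Median-of-ratios scaling gave 0.20, 0.20 and 0.21, and quantile normalization 0.22, 0.19 and 0.20. Of all genes tested, 12.8%, 10.3% and 3.79% were called in either direction.

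Among the other Oas1 genes, 2 of the 3 that passed the filter, Oas1b and Oas1h, were called higher in YS than in BM lines and 0 in the other comparisons. Of all genes tested, 7.57% were called higher between YS and BM lines. Oas1b was at 35.26 TPM in YS line 2 and 57.81 TPM in YS line 3, but its 21.45 TPM in YS line 1 was under the 21.96 TPM of BM line 2 (log2 difference 1.46, SE 0.51, adjusted p by limma = 0.064). Oas1h, at 9.87 TPM or less throughout, had a log2 difference of 1.25 (SE 0.44, adjusted p by limma = 0.065). Both calls were lost without YS line 3, BM line 1 or BM line 3, and that of Oas1b also without YS line 2. Both were also lost with no filter, with the replicate block and at a false discovery rate of 0.05. With a pseudocount of 4 the difference of Oas1h was 0.73, less than 2-fold. Oas1c was at 0.96 (adjusted p by limma = 0.021), less than 2-fold. Oas1d, Oas1e and Oas1f were at 0.73 TPM or less in each line.

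Of the other genes of the oligoadenylate pathway tested, Abce1 and Pde12, which degrades the oligoadenylates, were not called in any comparison. For Pde12 the YS lines were above all other lines, but the YS-to-BM log2 difference was 0.57 (adjusted p by limma = 0.011), less than 2-fold.

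Downstream of the RIG-I-like receptors, 1 of 15 signaling genes was called higher in YS than in BM lines (7.57% of all genes were) and 0 in the other comparisons. It was Irf7, a transcription factor of interferon genes that is itself induced by interferon. Irf7 stood at 240.91, 255.28 and 199.74 TPM in the YS lines, 182.79, 56.21 and 144.08 TPM in the FL lines, and 59.87, 128.17 and 18.42 TPM in the BM lines, so that YS lines were above all other lines. The YS-to-BM log2 difference was 2.12 (SE 0.65, adjusted p by limma = 0.042), and the call was lost without BM line 1 or BM line 3. The adaptor Mavs was not called, with 40.6 ± 6.37 TPM in YS, 34.8 ± 1.16 TPM in FL and 37.0 ± 2.48 TPM in the BM group (SD, n = 3 each). Of the 5 tested genes that restrain these receptors, 1 was called higher and 1 lower in YS than in BM lines, and 0 in the other comparisons. Of all genes, 7.57% were called higher and 5.22% lower between YS and BM lines. Nlrx1 was higher in YS than in BM lines (log2 difference 1.73, SE 0.33, adjusted p by limma = 0.0079). Tnfaip3, which encodes A20, a negative regulator of NF-κB signaling, was lower in YS lines (-1.44, SE 0.37, adjusted p by limma = 0.022). None of the 8 partners of PKR and other eIF2α kinases was called in any comparison, although 6 of them had an unadjusted p under 0.05 in limma's test between YS and BM lines, as did 41.2% of all genes. Of these 6, Prkra (-0.53), Eif2ak3 (-0.63) and Eif2ak4 (-0.49) had lower values in YS lines and Ppp1r15a (0.91), Dnajc3 (0.25) and Eif2s1 (0.25) higher ones.

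**Figure D4:**
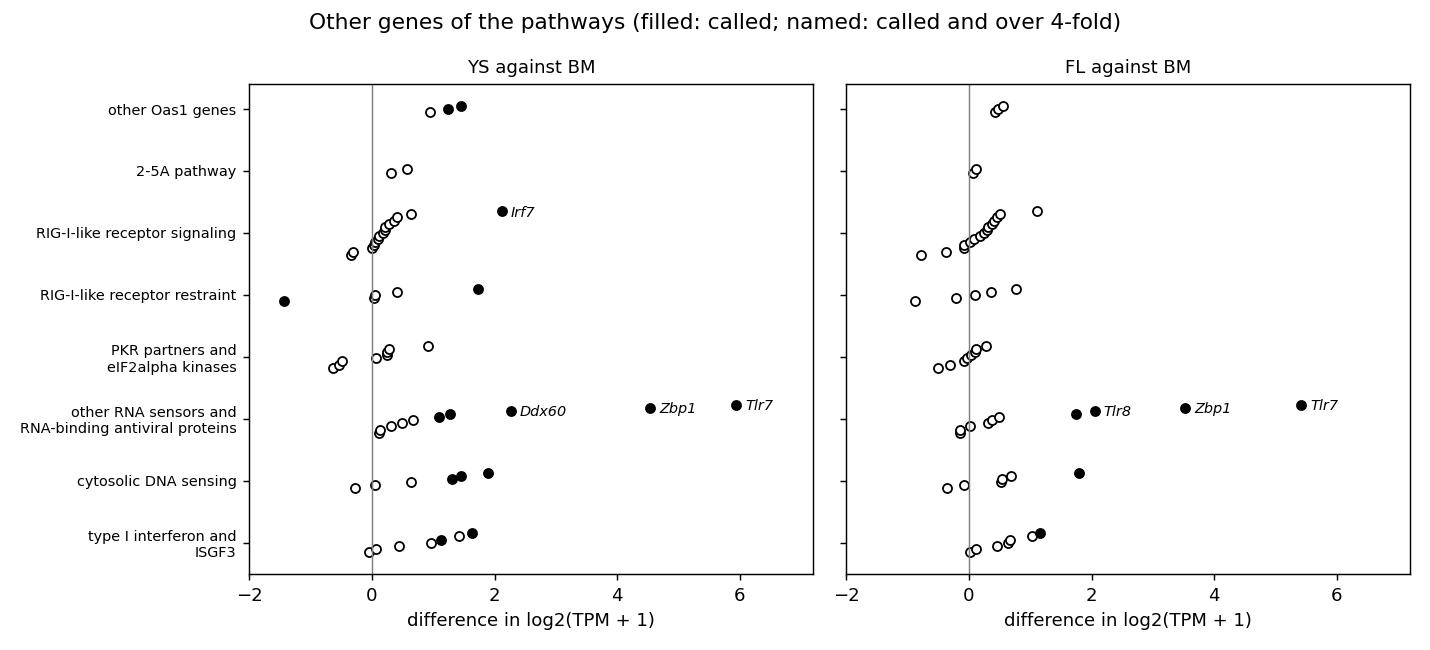
Difference in log2(TPM + 1) of YS (left) and FL (right) from BM lines for the 56 tested genes of the 8 lists, 1 point per gene, filled where called. Called genes over 4-fold are named: Irf7, Ddx60, Zbp1 and Tlr7 on the left, and Tlr8, Zbp1 and Tlr7 on the right.

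Of 10 other RNA sensors and antiviral RNA-binding proteins, 5 were called higher in YS than in BM lines and 4 higher in FL than in BM lines. The shares of all genes called higher were 7.57% and 6.01%. Tlr7, the endosomal sensor of single-stranded RNA, had the largest differences, 5.94 for YS over BM lines (SE 1.03, adjusted p by limma = 0.0057) and 5.42 for FL over BM lines (SE 1.03, adjusted p by limma = 0.0082). It was at 96.37 TPM or more in each YS and FL line, at 0.12 and 0.04 TPM in BM lines 1 and 3, but reached 19.61 TPM in BM line 2. Zbp1, a sensor of Z-form nucleic acids, was at 48.58, 97.73 and 216.23 TPM in the YS lines, 151.58, 18.31 and 42.82 TPM in the FL lines, and 2.00, 18.19 and 0.46 TPM in the BM lines. BM line 2 thus came close to FL line 2. The log2 difference of Zbp1 was 4.54 for YS over BM lines (SE 1.05, adjusted p by limma = 0.016) and 3.53 for FL over BM lines (SE 1.05, adjusted p by limma = 0.047), the latter not called without FL line 1, BM line 1 or BM line 3.

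Ddx60, a helicase of the RIG-I pathway, was called in both comparisons, with 2.27 for YS over BM lines (adjusted p by limma = 0.0096) and 1.74 for FL over BM lines (adjusted p by limma = 0.030, lost without BM line 3). Adar, which edits adenosines in double-stranded RNA, was called between YS and BM lines (1.27, adjusted p by limma = 0.0076). Tlr3, the endosomal receptor of double-stranded RNA, was also called there (1.09, adjusted p by limma = 0.026), but not without YS line 3 or BM line 3, nor with quantile normalization (0.95) or median-of-ratios scaling (0.98). Tlr8 was called between FL and BM lines (2.05, adjusted p by limma = 0.055), but not without FL line 2, FL line 3, BM line 1 or BM line 3, and between YS and BM lines when YS line 1 was left out.

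Genes of the cytosolic DNA pathway were called higher in 3 of 6 cases between YS and BM lines and in 1 of 6 between FL and BM lines. Of all genes tested, 7.57% and 6.01% were called higher in these comparisons. Tmem173, which encodes STING, was called in both, with 108 ± 48.3 TPM in YS, 96.8 ± 17.6 TPM in FL and 28.7 ± 13.7 TPM in the BM group (SD, n = 3 each; log2 differences 1.89 and 1.80, adjusted p by limma = 0.0084 and 0.011). Mb21d1, which encodes cGAS, and Trex1, a nuclease that degrades cytosolic DNA, were called between YS and BM lines (1.30 and 1.45, adjusted p by limma = 0.011 and 0.026).

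Against 7.57% of all genes tested, 2 of 7 genes of type I interferon and ISGF3 were called higher in YS than in BM lines. They were Stat2, which encodes a subunit of ISGF3 (1.63, SE 0.43, adjusted p by limma = 0.024) and Tyk2 (1.12, SE 0.29, adjusted p by limma = 0.024, lost without YS line 3 and, at 0.97, with quantile normalization). Stat2 was also called between FL and BM lines (1.16, adjusted p by limma = 0.093), which was lost without YS line 2, FL line 1, FL line 3, BM line 1 or BM line 3, and with either other scaling (adjusted p = 0.13 in both). Irf9 was at 0.96 for YS over BM lines (adjusted p by limma = 0.031), less than 2-fold. Transcripts of interferon beta itself were scarce. Ifnb1 was at 0.60, 1.90 and 4.95 TPM in the YS lines, 3.20, 0.00 and 1.91 TPM in the FL lines, and 0.21, 0.20 and 0.00 TPM in the BM lines. Ifnb1 passed the filter through YS and FL lines alone, as every BM line was under 1 TPM. YS lines were above all BM lines, but the difference of 1.42 was not called (SE 0.60, adjusted p by limma = 0.11). It was called without YS line 1, FL line 1 or FL line 2, and the FL and BM difference was called without FL line 2.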

How the data were processed

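The authors isolated total RNA from 9 macrophage lines (3 YS, 3 FL and 3 BM), prepared poly(A)-selected directional libraries and read them as single reads of 75 nt. They deposited one table of TPM per gene symbol, to 2 decimals. The submitters' processing notes name Trim Galore 0.6.6, STAR 2.7.9a and RSEM 1.3.3. The genome build and annotation behind the table are not given in the sources used here. The study tested read counts, and TPM cannot enter a count test, so limma 3.58.1 (R 4.3.3) was used with an intensity trend on log2(TPM + 1), a scale that understates changes of low genes. A gene entered the test if 3 or more of the 9 libraries held 1 TPM or more of it, Benjamini-Hochberg adjustment was over all such genes, and the thresholds were those of the study. The depth of each library is unknown from TPM.

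The members, lists and tests were chosen with earlier results of these data known. The rule named all members, every pathway gene called in a comparison and the 10 other genes most like the mean of the members. Some genes are not reported here, and they were left out of the pathway lists. Cell markers were named from fixed lists. The uncalled pathway genes Mavs, Abce1, Pde12, Oas1c, Oas1d, Oas1e, Oas1f, Irf9, Ifnb1, Prkra, Eif2ak3, Eif2ak4, Ppp1r15a, Dnajc3 and Eif2s1, and the genes most like Oasl1, were named after their values were seen. Promoters came from RefSeq (GRCm38.p6) and transcripts from GENCODE M21, and shared windows were exact matches. The test was first tried on simulated data with known changes. Alternatives changed the pseudocount, filter, scaling, trend, libraries, thresholds and replicate block, and left out each line.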

Additional observations from a re-analysis of the deposited data

How the results depend on the processing

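Direction held for the 10 genes in each alternative but 3 fits between FL and BM lines, none of which was called: Oas1g at -0.04 without FL line 1 and -0.20 without BM line 3, and Oasl1 at 0.86 without FL line 2. Leaving out one line at a time, the log2 difference ranged from -0.20 to 0.52 for Oas1g and from -2.05 to 0.86 for Oasl1 in that comparison.

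Of 7 genes called between YS and BM lines, the count was 3 when no filter was applied and 24411 genes were tested. Of 2 between FL and BM lines, 1 was called with quantile normalization and 1 with median-of-ratios scaling, and 0 with no filter, with the replicate block or at a false discovery rate of 0.05. Between YS and BM lines, 6 were called with quantile normalization, and 5 with median-of-ratios scaling, with the replicate block or at a false discovery rate of 0.05. Over all tested genes, lines that share a number did not deviate together from their group means (r between -0.12 and 0.09 over 9 pairs). Whether lines of the same number shared a batch that touched fewer genes was not tested. Leaving out one line, the counts ranged from 3 to 9, from 0 to 3 and from 0 to 1 for YS against BM, FL against BM and YS against FL lines. Fits without one line held fewer lines and the fit with no filter tested more genes, but the cause of these shifts was not tested. For the 56 pathway genes, the counts of 15, 6 and 0 became 31, 14 and 4 without a fold threshold, and 2 between FL and BM lines with no filter. Leaving out one line, they ranged from 11 to 18, from 2 to 7 and from 0 to 3. Among all genes, 229 higher and 217 lower calls between YS and FL lines became 79 and 75 with no filter, 44 and 32 with only those groups in the model, 144 and 136 with a pseudocount of 4, and 115 and 119 at a false discovery rate of 0.05. Without a fold threshold they became 729 and 771, and the calls between YS and BM lines 2763 and 1692 and those between FL and BM lines 1996 and 1251. Leaving out one line, the split between YS and FL lines was 106 and 69 without FL line 2, 99 and 79 without FL line 3, 139 and 146 without BM line 1 and 145 and 149 without BM line 3. TPM without depth gives no counting error, so low values such as those of Ifnb1 have no stated precision.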

Other observations

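Oasl1, the gene that stood apart from the other 9, was compared after its values were seen with all tested genes across the 9 libraries. The highest Pearson's r were those of Racgap1 (0.968), Nup155 (0.957), Sap30 (0.935), Tpx2 (0.925) and Tfpi (0.917), and its highest r with another gene of the list was 0.55. These are the largest of 11752 values over 9 libraries and are given as a description. The level of Oasl1 relative to Oasl2 ranged from 0.0058 in FL line 2 to 0.53 in YS line 1.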
